A study of Oryza sativa Japonica Group with 21 samples.

Results

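Aquaporins are channel proteins that let water, and in some members small uncharged solutes, cross membranes. The rice genes described here were chosen by name: every gene whose symbol or synonym in the array annotation was PIP, TIP, NIP or SIP followed by a number, a hyphen and a number. The annotation named 28 such genes, and 25 of them had a probe set assigned to that gene alone, out of 17905 genes on the array. Of these 25, 10 were plasma membrane intrinsic proteins (PIP), 8 tonoplast intrinsic proteins (TIP), 5 nodulin 26-like intrinsic proteins (NIP) and 2 small basic intrinsic proteins (SIP). PIP2-3, NIP1-2 and NIP3-3 were named without a listed probe set and are not analysed here. Where a gene had several probe sets, the one with the highest mean over all arrays was used.

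The samples were organs of the japonica rice cultivar Zhonghua 15, and the labels name no mutant, transgene or treatment. Stamens were microdissected at stages 2, 3, 4, 5 and 6, each staged on sections of the same panicle. The leaf samples were the third leaf just after it had expanded and the primordium of the third leaf, which was taken out of the embryo after the seed had lain in water for 2 to 3 days. Each of the 7 groups had 3 biological replicates, giving 21 Affymetrix arrays. The labels name growth chamber and field as growth places without saying which plants gave which sample, so the place of growth and the organ cannot be told apart. The study took the leaf samples as controls because the leaf and the stamen are homologous organs. These are bulk samples, in which fewer cells of a type and less RNA per cell cannot be told apart.

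PIPs sit in the plasma membrane and divide into the PIP1 and PIP2 groups. PIP2 proteins carry water on their own in test cells, whereas many PIP1 proteins need a PIP2 partner to reach the membrane, as shown in maize. TIPs sit in the vacuole membrane, and water uptake into a growing central vacuole drives much of plant cell expansion. NIPs include channels for silicic acid, boric acid and arsenite, and SIPs were placed in the endoplasmic reticulum in Arabidopsis.

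All values are log2 signals after the authors' robust multi-array normalization, and a difference of 1 is a 2-fold difference. Array medians lay between 5.82 and 5.89. Replicates correlated at 0.981 or higher in every group except the expanded leaf, where the correlations were 0.931 to 0.949. Summed over 5 stamen markers, the MADS-box genes MADS3, MADS4, MADS8, MADS16 and MADS58, the log2 values were 54.19 to 57.35 in stamens, against 30.60 to 36.46 in expanded leaves and 25.91 to 26.87 in leaf primordia. The sum over 5 green-leaf markers was 63.10 to 70.32 in expanded leaves and 34.22 to 34.83 in leaf primordia. The sum over 3 embryo markers (EM, LEA19 and RAB16C) was 40.39 to 40.59 in leaf primordia, higher than on any other array. No marker was at 0, since the lowest log2 value in the whole table was 2.24. A gene was called changed when limma's moderated test gave a Benjamini-Hochberg adjusted p under 0.05 over all 57258 probe sets and the difference was at least 2-fold. The p-values measure only the spread between these samples. Each SE pools a gene's spread over the 7 groups, so it can be too small for the expanded leaf where those arrays vary more.

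Many aquaporins had their highest signal in the expanded leaf. The expanded leaf was the highest group for 13 of the 25 genes, stage 2 stamens for 7, the leaf primordium for 3, and stages 3 and 5 for 1 gene each. For 8 genes the 7 group means lay within 1 log2 unit of each other, so their highest group rests on small differences. Among these the expanded leaf was highest for NIP4-1, PIP2-5, TIP2-1 and TIP4-2, and stage 2 for NIP3-1 and SIP1-1. The share of all probe sets highest in each group was not computed. The mean signal of 11 genes was below the median over all probe sets, 5.91, and a probe set of low signal can hide a difference.

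**Figure D1:**
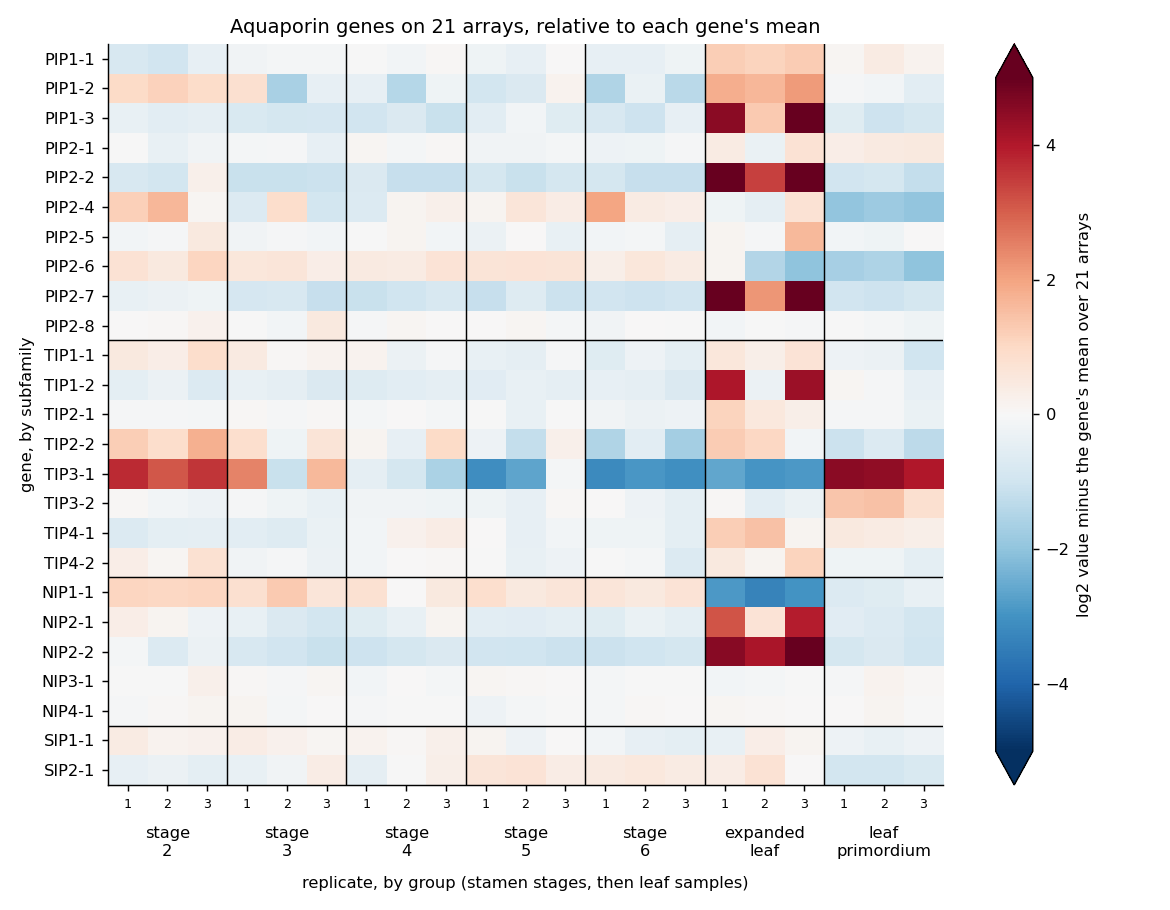
Log2 value minus the gene's mean over the 21 arrays (colour, red above and blue below the mean) for the 25 aquaporin genes, in rows by subfamily and in columns by array within each group. PIP2-2, PIP2-7, NIP2-2 and PIP1-3 are red in the expanded leaf columns, and TIP3-1 turns from red at stage 2 and in the leaf primordium to blue at stage 6 and in the expanded leaf.

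Set against the leaf primordium, 4 aquaporins were higher and 2 lower in stamens, and 19 were not called. The called share was 24%, where 14.3% of all probe sets were called (7.59% higher and 6.71% lower). The median difference over the family was 0.09, and over all probe sets it was -0.03. Set against the expanded leaf, 3 aquaporins were higher and 9 lower in stamens, a called share of 48%, where 23.3% of all probe sets were called (13.3% higher and 9.97% lower). The median was -0.64 for the family and -0.08 for all probe sets. Between the leaf samples, 11 aquaporins were higher and 3 lower in the expanded leaf than in the leaf primordium, a called share of 56%, where 22.6% of all probe sets were called (9.84% higher and 12.8% lower). The median here was 0.88 for the family and 0.04 for all probe sets. The 3 comparisons share their arrays in pairs, so a gene high in the expanded leaf enters the last 2 of them with the same arrays.

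**Figure D2:**
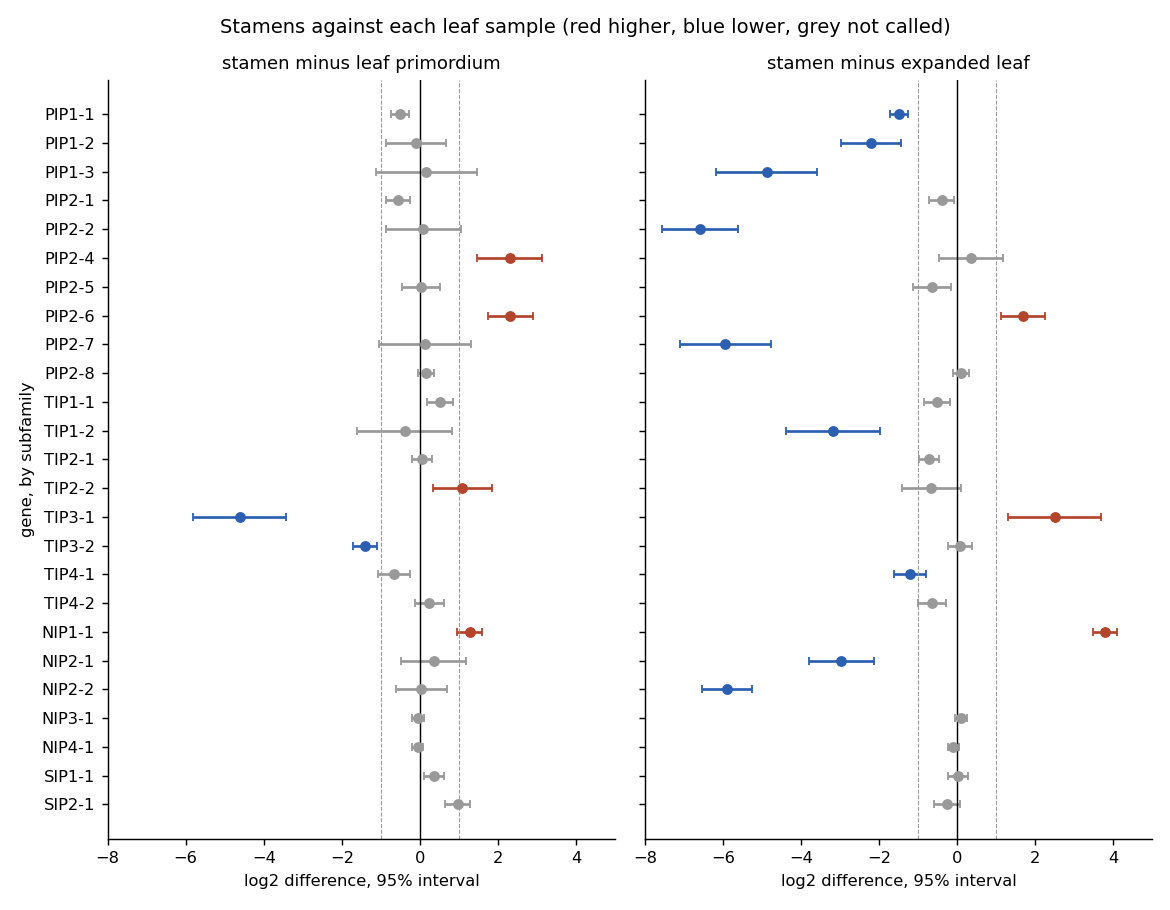
Differences in log2 value (points) with 95% confidence intervals (bars) for the 25 aquaporins, as stamen minus leaf primordium on the left and stamen minus expanded leaf on the right, with called genes in red where higher and blue where lower in stamens, other genes in grey, and dashed lines at 2-fold. The left panel has 4 red and 2 blue genes, and the right panel 3 red and 9 blue genes, led by PIP2-2, PIP2-7 and NIP2-2.

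All 3 PIP1 genes were lower in stamens than in the expanded leaf. PIP1-3, also known as RWC3, a rice water channel of the plasma membrane, was between 3.88 and 4.87 on the 15 stamen arrays, with a median of 4.29. On the expanded leaf arrays it was 9.54, 6.33 and 11.78, and in leaf primordia 4.42, 3.98 and 4.12. Every expanded leaf lay above every other array, although the 3 expanded leaves differed among themselves by more than 5 log2 units. PIP1-3 was lower in stamens than in expanded leaves by a log2 difference of -4.88 ± 0.61 (SE; limma adjusted p = 2.9e-06). The difference was -6.32 without expanded leaf replicate 2 and -3.60 without replicate 3. In expanded leaves PIP1-3 exceeded leaf primordia by 5.04 ± 0.79 (SE; limma adjusted p = 5.17e-05), by 6.49 without expanded leaf replicate 2 and by 3.76 without replicate 3. Over the alternative fits described below, the limma adjusted p of this leaf difference reached 0.0393. The SD of PIP1-3 was 2.74 in expanded leaves (n = 3) and 0.28 over all stamens (n = 15), a difference that the pooled SE does not show.

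PIP1-2 and PIP1-1 had high signals in every group. PIP1-2 was between 9.35 and 12.11 on the stamen arrays with a median of 10.57, against 12.79, 12.64 and 13.08 in expanded leaves and 10.91, 10.84 and 10.46 in leaf primordia. The expanded leaves exceeded all other arrays, and the stamens overlapped the leaf primordia. The difference was -2.20 ± 0.37 for stamens minus expanded leaf (SE; limma adjusted p = 7.1e-05) and 2.10 ± 0.47 for expanded leaf minus leaf primordium (SE; limma adjusted p = 0.00165). PIP1-1, also named RWC1, was between 11.37 and 12.41 in stamens, against 13.58, 13.45 and 13.61 in expanded leaves and 12.44, 12.73 and 12.50 in leaf primordia. Its 15 stamens lay below all 6 leaf arrays. The stamen difference from the expanded leaf was -1.49 ± 0.11 (SE; limma adjusted p = 2.9e-09), and that from the leaf primordium, -0.51 (limma adjusted p = 0.00145), was under 2-fold and so not called.

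Among the 7 PIP2 genes, PIP2-2 and PIP2-7 had the same leaf-high profile as PIP1-3. PIP2-2 was between 4.46 and 5.86 in stamens, with a median of 4.54, against 12.20, 9.02 and 12.60 in expanded leaves and 4.65, 4.73 and 4.43 in leaf primordia. PIP2-7 was between 4.30 and 5.24 in stamens, with a median of 4.52, against 12.19, 7.69 and 11.84 in expanded leaves and 4.50, 4.44 and 4.59 in leaf primordia. For both genes the expanded leaves stood clear of the other 18 arrays, replicate 2 being the lowest of the 3. The stamen minus expanded leaf difference of PIP2-2 was -6.58 ± 0.46 (SE; limma adjusted p = 1.5e-09), the largest in the family, and was -7.71 without expanded leaf replicate 2, -5.92 without replicate 3 and -4.76 as the mean of the gene's 2 probe sets. The stamen minus expanded leaf difference of PIP2-7 was -5.94 ± 0.56 (SE; limma adjusted p = 7.45e-08), and -7.38 without expanded leaf replicate 2, -5.13 without replicate 1 and -5.30 without replicate 3. Relative to leaf primordia, expanded leaves were higher by 6.67 ± 0.59 for PIP2-2 and by 6.06 ± 0.72 for PIP2-7 (SE; limma adjusted p = 6.26e-08 and 2.16e-06). Over the alternative fits these limma adjusted p-values reached 0.00403 for PIP2-2 and 0.0146 for PIP2-7.

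PIP2-6 ran the other way and was one of 2 family members called above both leaf samples. It was between 11.53 and 12.31 in stamens, with a median of 11.81, against 11.38, 9.75 and 9.22 in expanded leaves and 9.55, 9.70 and 9.21 in leaf primordia. All 15 stamens lay above all 6 leaf arrays, and expanded leaf replicate 1 came closest to them. The stamen difference was 2.31 ± 0.27 from the leaf primordium (SE; limma adjusted p = 2.53e-06) and 1.69 ± 0.27 from the expanded leaf (SE; limma adjusted p = 4.89e-05), or 2.32 from the expanded leaf without its replicate 1. The smaller of these differences passed the test against both leaf samples at once (1.69, limma adjusted p = 0.000142). Of all probe sets 4.35% passed that test, and of the aquaporins 2 of 25 (8%).

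PIP2-4 was higher in stamens than in leaf primordia. Its values were 8.69, 9.15 and 7.59 in stage 2 stamens, 6.82, 8.38 and 6.59 in stage 3 stamens, 6.84, 7.63 and 7.75 in stage 4 stamens, 7.65, 8.11 and 7.86 in stage 5 stamens, and 9.50, 7.92 and 7.84 in stage 6 stamens. The expanded leaves had 7.30, 7.06 and 8.23, within the stamen range, and the leaf primordia 5.55, 5.68 and 5.54, below every other array. The stamen minus leaf primordium difference was 2.30 ± 0.39 (SE; limma adjusted p = 0.000156). PIP2-4 was higher in expanded leaves than in leaf primordia by 1.94 ± 0.50 (SE; limma adjusted p = 0.00525), a call that was lost when arrays were weighted by their quality.

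**Figure D3:**
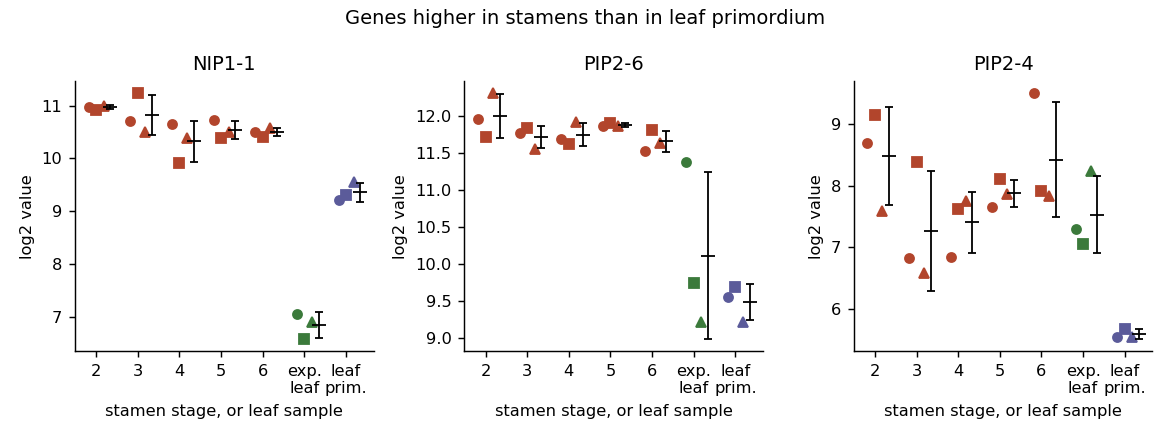
Log2 values on each array (points, shaped by replicate) and group mean ± SD (n = 3) of NIP1-1, PIP2-6 and PIP2-4 at stamen stages 2 to 6, in the expanded leaf and in the leaf primordium. All stamens lie above all leaf arrays for NIP1-1 and PIP2-6, while PIP2-4 overlaps the expanded leaf and exceeds only the leaf primordium.

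The other 3 PIP2 genes were not called in any comparison. PIP2-1 had a high signal throughout, at 12.33 to 12.83 in stamens, 13.16, 12.40 and 13.47 in expanded leaves and 13.09, 13.19 and 13.22 in leaf primordia. The stamens lay below every leaf primordium by a mean of -0.56 (limma adjusted p = 0.0067), short of 2-fold. PIP2-5 was between 4.59 and 5.51 in stamens, against 5.16, 4.98 and 6.64 in expanded leaves, and PIP2-8 varied by less than 1 log2 unit over all 21 arrays. In the RefSeq rice annotation PIP2-1 and PIP2-5 are neighbours with 0 genes between them, and PIP2-4 lies 1 gene beyond PIP2-5. The 3 did not share a call. In stamens PIP2-4 exceeded the leaf primordium, PIP2-1 lay below it by less than 2-fold, and PIP2-5 was not called there.

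The tonoplast genes held the largest change over stamen stages. TIP3-1 belongs to the TIP3 group, known in Arabidopsis from the vacuoles of maturing seeds. It was 10.75, 10.13 and 10.62 in stage 2 stamens, 9.52, 5.93 and 8.64 in stage 3 stamens, and 6.57, 6.13 and 5.46 in stage 4 stamens. It was 3.91, 4.39 and 6.92 in stage 5 stamens, and 3.84, 4.11 and 3.94 in stage 6 stamens. Expanded leaves had 4.43, 4.08 and 4.17, close to stage 6, and leaf primordia 11.54, 11.45 and 11.04, above every stamen. The group mean was lower at each step, at 10.50 ± 0.33, 8.03 ± 1.87, 6.05 ± 0.56, 5.07 ± 1.61 and 3.96 ± 0.14 (SD, n = 3 each) from stage 2 to stage 6, and of the neighbouring stages only 2 and 3 did not overlap.

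TIP3-1 fell by 6.54 ± 0.73 between stages 2 and 6 on the log2 scale (SE; limma adjusted p = 1.69e-05), and its change over the 5 stages passed the F-test (limma adjusted p = 0.000107). No single step was called, and the step with the smallest adjusted p was stage 3 minus stage 2 (-2.47 ± 0.73, SE; limma adjusted p = 0.0842). That step was called without stage 3 replicate 1 (-3.22) and without stage 5 replicate 3 (-2.47, limma adjusted p = 0.0397). Without stage 2 the change over the remaining stages spanned 4.06 (limma adjusted p = 0.0428). Averaged over stages, TIP3-1 was lower in stamens than in leaf primordia by -4.62 ± 0.57 (SE; limma adjusted p = 4.37e-06), and by -5.56 without stage 2. It was higher in stamens than in expanded leaves by 2.50 ± 0.57 (SE; limma adjusted p = 0.00138), with overlapping groups, by 1.55 without stage 2, and not called with array weights. Expanded leaves were below leaf primordia by -7.11 ± 0.73 (SE; limma adjusted p = 3.78e-07).

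The embryo markers were high where TIP3-1 was highest, in the leaf primordia, and lower in stage 2 stamens. Their summed log2 value was 23.03 to 24.00 at stage 2, 19.99 to 23.92 at stage 3, 20.89 to 22.91 at stage 4, 19.32 to 20.99 at stage 5 and 20.11 to 21.11 at stage 6. Of the 3 markers 0 were called between stages 6 and 2 by limma. LEA19 differed by -2.48 (limma adjusted p = 0.165) without overlap of the stages. EM at -0.55 and RAB16C at 0.14 overlapped. LEA19, an embryo protein gene, had stage means of 9.98, 8.46, 7.90, 7.45 and 7.50, EM had 7.11, 7.06, 6.86, 6.44 and 6.56, and RAB16C had 6.52, 6.37, 6.83, 6.43 and 6.66. The part of embryo transcripts in the leaf primordium values was not tested.

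TIP3-2, the other TIP3 gene, was also higher in leaf primordia than elsewhere, at a far smaller difference. It was between 4.38 and 4.91 in stamens, with a median of 4.64, against 4.94, 4.34 and 4.52 in expanded leaves and 6.25, 6.34 and 5.65 in leaf primordia. The primordia stood above all other arrays, and stamens overlapped expanded leaves. The differences from the leaf primordium were -1.41 ± 0.15 for stamens (SE; limma adjusted p = 5.94e-07) and -1.48 ± 0.19 for expanded leaves (SE; limma adjusted p = 5.13e-06). TIP3-2 was not called over the stamen stages, its stage 6 minus stage 2 difference being -0.12 (limma adjusted p = 0.775).

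TIP2-2 and TIP1-1, both vacuole membrane water channels, also fell between stages 2 and 6. TIP2-2 was 12.12, 11.77 and 12.68 in stage 2 stamens, 11.76, 10.69 and 11.57 in stage 3 stamens, 11.03, 10.49 and 11.87 in stage 4 stamens, 10.66, 9.72 and 11.16 in stage 5 stamens, and 9.41, 10.38 and 9.23 in stage 6 stamens. Expanded leaves had 12.17, 11.94 and 10.78, and leaf primordia 9.82, 10.22 and 9.61. Every stage 6 stamen was below every stage 2 stamen, and stages 3, 4 and 5 overlapped one another. TIP2-2 fell by 2.52 ± 0.46 between stages 2 and 6 (SE; limma adjusted p = 0.00111). Averaged over stages it exceeded the leaf primordium by 1.08 ± 0.36 (SE; limma adjusted p = 0.0261), but the groups overlapped and the call was lost without stage 2, without leaf primordium replicate 1 or replicate 3, and with array weights. TIP2-2 was higher in expanded leaves than in leaf primordia by 1.75 ± 0.46 (SE; limma adjusted p = 0.00561), a call lost with array weights.

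TIP1-1 was 12.61, 12.45 and 13.00 in stage 2 stamens, 12.57, 12.14 and 12.27 in stage 3 stamens, 12.27, 11.81 and 12.04 in stage 4 stamens, 11.72, 11.66 and 12.05 in stage 5 stamens, and 11.50, 11.87 and 11.62 in stage 6 stamens. Expanded leaves had 12.66, 12.39 and 12.78, and leaf primordia 11.85, 11.82 and 11.10. Stage 2 and the expanded leaf lay above stage 6 and the leaf primordium without overlap, within a narrow band of high signal. TIP1-1 fell by 1.02 ± 0.20 between stages 2 and 6 (SE; limma adjusted p = 0.00228), just past 2-fold. That call was lost in 6 of 32 alternatives, among them leaving out stage 2 replicate 3, stage 6 replicate 1 or stage 6 replicate 3. Expanded leaves exceeded leaf primordia by 1.02 ± 0.20 (SE; limma adjusted p = 0.000621), a call lost in 5 of 32 alternatives, namely without leaf primordium replicate 3, expanded leaf replicate 1 or expanded leaf replicate 3, with array weights and with the 3′ to 5′ covariate for RNA quality. The second probe set of TIP1-1 gave -1.27 between stages 6 and 2 and 1.20 between expanded leaves and leaf primordia, both called.

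PIP1-2 was the fourth gene that fell between stages 2 and 6. Its values were 11.93, 12.11 and 11.89 in stage 2 stamens, 11.76, 9.35 and 10.55 in stage 3 stamens, 10.57, 9.56 and 10.74 in stage 4 stamens, 10.03, 10.23 and 11.14 in stage 5 stamens, and 9.46, 10.64 and 9.60 in stage 6 stamens. Stage 2 was higher than every later stamen, and stages 3 to 6 overlapped. The fall was 2.08 ± 0.47 (SE; limma adjusted p = 0.0055).

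**Figure D4:**
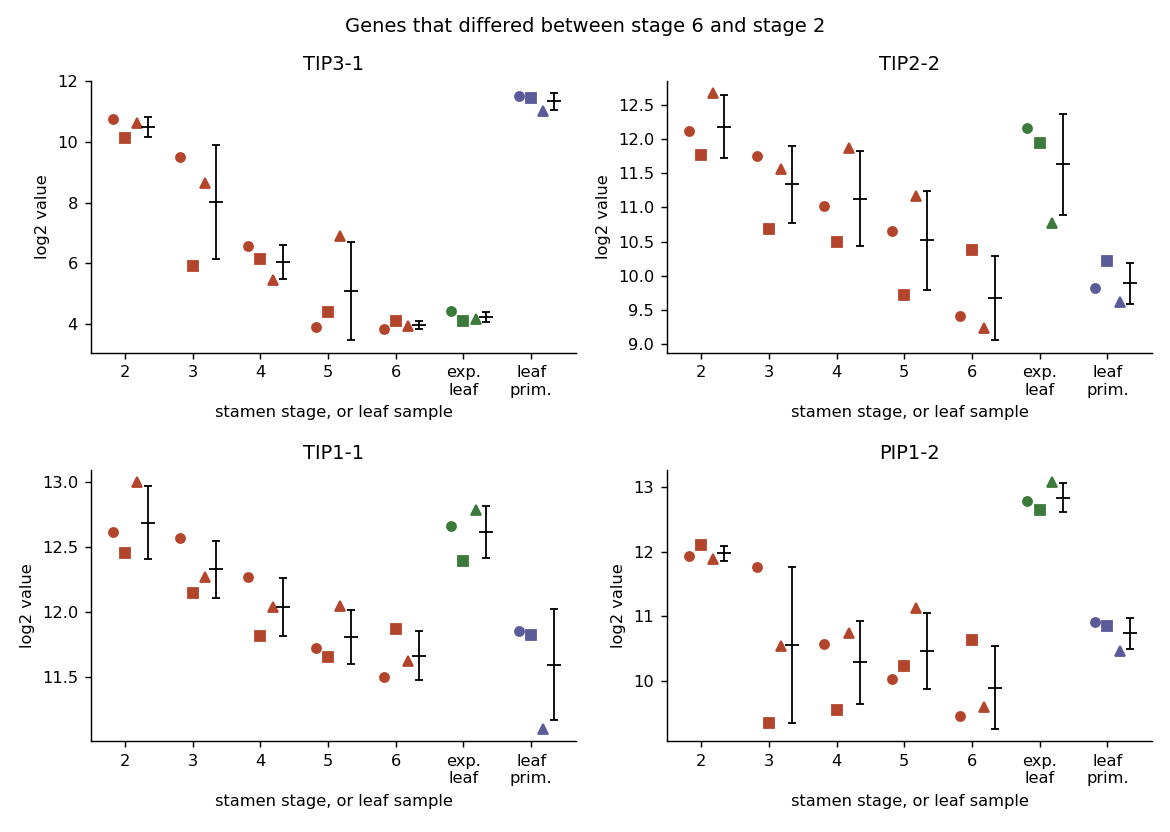
Log2 values on each array (points, shaped by replicate) and group mean ± SD (n = 3) of the 4 genes called between stages 6 and 2, TIP3-1, TIP2-2, PIP1-2 and TIP1-1, at stages 2 to 6, in the expanded leaf and in the leaf primordium. TIP3-1 spans 6.54 log2 units between stages 6 and 2, TIP2-2 spans 2.52, PIP1-2 spans 2.08 and TIP1-1 spans 1.02.

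All aquaporins called between stages 6 and 2 were lower at stage 6. Between stages 6 and 2, 0 aquaporins were higher and 4 lower, a called share of 16%, where 7.87% of all probe sets were called (4.4% higher and 3.47% lower). The median difference was -0.31 for the family and -0.03 for all probe sets. Stage 2 was the highest stage for 17 of the 25 genes, a count that includes NIP3-1 and NIP4-1 near the bottom of the scale. The mean of 5 genes (PIP2-7, SIP1-1, TIP1-1, TIP2-2 and TIP3-1) was lower at every step, and that of 0 genes was higher at every step. For PIP2-7 the means of stages 3 to 6 were nearly level, at 4.53, 4.50, 4.50 and 4.49. No single step was called for any of the 5. The share of all probe sets with these patterns was not computed. The same 4 genes passed the F-test over the 5 stages, where 7.23% of all probe sets did. PIP1-2 had an adjusted p of 0.0444 there and lost the call in 18 of 33 alternatives. TIP1-1 kept the F-test call in 25 of 33 alternatives, TIP2-2 in 31 and TIP3-1 in all 33. Without stage 2 both TIP2-2 and TIP1-1 lost it.

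Between consecutive stages limma called 0 aquaporins. At an unadjusted p under 0.05 there were 5 genes for stage 3 minus stage 2, 3 for stage 4 minus stage 3, 1 for stage 5 minus stage 4 and 0 for stage 6 minus stage 5. The share of all probe sets at that unadjusted p was not computed. By the calling rule, with adjusted p and 2-fold, 1.55%, 0.00699%, 0.0437% and 0% of all probe sets were called at these steps. PIP1-1 had an adjusted p of 0.0321 at the first step, with a difference of 0.59 that was under 2-fold.

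Green-leaf markers and RNA quality also differed between the stages. The summed green-leaf markers were 35.62 to 38.28 at stage 6, against 38.94 to 43.55 at stage 2. Of the 5 markers RBCS was called lower at stage 6 (-1.41, limma adjusted p = 0.029), and CAB2R (-2.26), RCABP89 (-0.81), RCAA1 (-0.19) and PETE (0.60) were not called. Their part in the aquaporin differences was not tested. The difference between the 3′ and 5′ control probe sets of actin and GAPDH, which grows as the RNA or its copies get shorter, was 3.19 to 3.41 at stage 2, 1.45 to 2.69 at stage 3, 1.96 to 2.07 at stage 4, 1.86 to 2.16 at stage 5 and 1.27 to 1.94 at stage 6. With this difference as a covariate the fall was 7.47 for TIP3-1 and 3.83 for TIP2-2, and both stayed called. The difference was -2.41 for PIP1-2 (limma adjusted p = 0.0665) and -0.94 for TIP1-1 (limma adjusted p = 0.1) in that fit, so neither was called. Without the covariate these were -2.08 and -1.02. Stage 2 lay above every later stage in the 3′ to 5′ difference, so RNA quality and stage cannot be told apart.

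The remaining TIP genes differed mainly in the leaf. TIP1-2 was between 6.35 and 6.77 in stamens, against 11.12, 6.78 and 11.35 in expanded leaves and 7.20, 7.01 and 6.68 in leaf primordia. In 2 of the 3 expanded leaves it was far above all other arrays, while expanded leaf replicate 2 lay among the leaf primordia. The stamen minus expanded leaf difference was -3.18 ± 0.57 (SE; limma adjusted p = 0.000164), and -4.67 without expanded leaf replicate 2, -2.50 without replicate 1 and -2.38 without replicate 3. TIP1-2 was higher in expanded leaves than in leaf primordia by 2.79 ± 0.74 (SE; limma adjusted p = 0.00605), with overlapping groups, and TIP1-2 was not called there when only these 2 groups were fitted (adjusted p = 0.183).

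TIP4-1 was between 8.90 and 9.95 in stamens, against 10.81, 11.03 and 9.69 in expanded leaves and 10.07, 9.98 and 9.85 in leaf primordia. Its stamen minus expanded leaf difference of -1.21 ± 0.19 (SE; limma adjusted p = 3.93e-05) came with overlapping groups and was under 2-fold without expanded leaf replicate 2 (-0.95) and as the mean of the gene's 2 probe sets (-0.68). The second probe set of TIP4-1 gave -0.15 and was not called. TIP2-1 was 5.65, 5.05 and 4.84 in expanded leaves, above the stamens at 4.17 to 4.61, by a difference under 2-fold. TIP4-2 ranged from 4.71 to 6.15 in stamens and was not called.

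The NIP genes held both a stamen-high gene and leaf-high genes. NIP1-1, a relative of the soybean nodule protein nodulin 26, was between 9.91 and 11.23 in stamens with a median of 10.57. It was 7.05, 6.58 and 6.90 in expanded leaves and 9.22, 9.30 and 9.55 in leaf primordia. The 3 organs did not overlap, with stamens highest and expanded leaves lowest. NIP1-1 was higher in stamens than in expanded leaves by 3.78 ± 0.15 (SE; limma adjusted p = 5.36e-13) and than in leaf primordia by 1.27 ± 0.15 (SE; limma adjusted p = 2.51e-06). It was lower in expanded leaves than in leaf primordia by -2.51 ± 0.19 (SE; limma adjusted p = 8.46e-09). Against both leaf samples at once NIP1-1 passed the test with PIP2-6 (adjusted p = 4.22e-06).

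NIP2-2 and NIP2-1 are the rice silicic acid channels Lsi6 and Lsi1, known for silicon transport in leaf and root tissue. NIP2-2 was between 4.17 and 5.19 in stamens, with a median of 4.35, against 9.84, 9.36 and 11.83 in expanded leaves and 4.40, 4.56 and 4.28 in leaf primordia. NIP2-1 was between 5.61 and 6.87 in stamens, with a median of 6.03, against 9.68, 7.21 and 10.45 in expanded leaves and 5.94, 5.84 and 5.58 in leaf primordia. Both genes were higher on each expanded leaf array than on any other array, and stamens overlapped leaf primordia. The stamen minus expanded leaf difference was -5.89 ± 0.30 for NIP2-2 (SE; limma adjusted p = 2.35e-11) and -5.15 without expanded leaf replicate 3. It was -2.97 ± 0.40 for NIP2-1 (SE; limma adjusted p = 5.98e-06), and -3.92 without expanded leaf replicate 2 and -2.30 without replicate 3. Expanded leaves exceeded leaf primordia by 5.93 ± 0.39 for NIP2-2 and by 3.33 ± 0.51 for NIP2-1 (SE; limma adjusted p = 1.33e-09 and 4.21e-05). Over the alternative fits these limma adjusted p-values reached 0.00136 for NIP2-2 and 0.0321 for NIP2-1.

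NIP3-1, a boric acid channel known as DTE1 for its dwarf, many-tillered rice mutant, stayed between 2.59 and 2.99 on all 21 arrays, and NIP4-1 between 2.46 and 2.84. These values lie near the bottom of the scale and neither gene was called in any comparison.

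**Figure D5:**
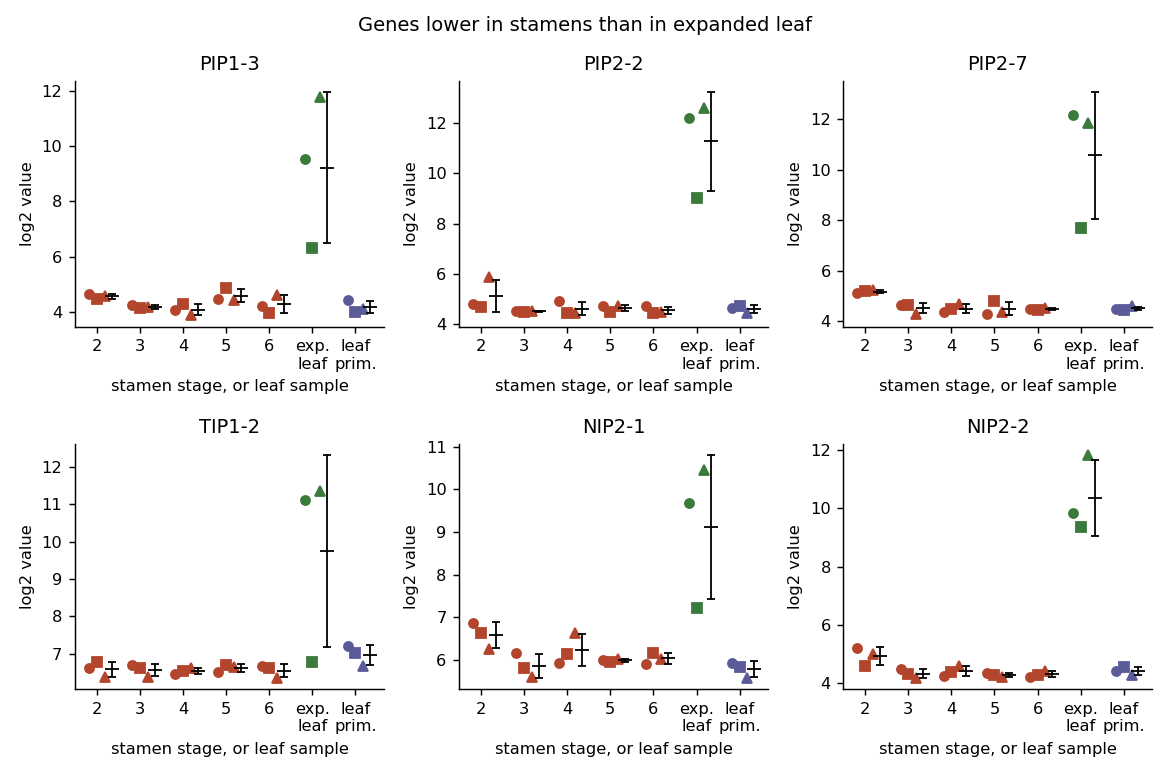
Log2 values on each array (points, shaped by replicate) and group mean ± SD (n = 3) of PIP1-3, PIP2-2, PIP2-7, TIP1-2, NIP2-1 and NIP2-2 at stamen stages 2 to 6, in the expanded leaf and in the leaf primordium. Stamens and leaf primordia lie together at the bottom of each panel, and the expanded leaves lie above them with a wide spread in which replicate 2 is the lowest, except that replicate 2 of TIP1-2 lies among the leaf primordia.

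The expanded leaf replicates differed in some leaf-high genes. In 7 members the 3 expanded leaves spanned more than 2 log2 units, and in 6 of these, all but PIP2-6, replicate 2 was the lowest. PIP1-1 and PIP1-2, also highest in the expanded leaf, spanned 0.16 and 0.44. The share of all probe sets with such spans was not computed. Of the 5 green-leaf markers, 3 were also lowest in replicate 2 and 2 in replicate 3. CAB2R, a chlorophyll-binding protein gene, was 13.55, 9.51 and 12.24 in expanded leaf replicates 1, 2 and 3, RBCS, the Rubisco small subunit, 14.57, 13.80 and 14.53, and PETE, plastocyanin, 13.87, 13.12 and 13.76. RCAA1, Rubisco activase, was 14.07, 13.80 and 13.11, and RCABP89, another chlorophyll-binding protein gene, 14.26, 12.86 and 12.40. Replicate 3 stood apart in the embryo marker LEA19 (5.15, 5.72 and 11.27) and the stamen marker MADS58 (5.76, 6.29 and 10.04), but not in RAB16C (7.79, 6.57 and 7.62), and EM was 6.31, 6.23 and 7.12. The 3′ to 5′ difference was 1.73, 1.96 and 3.37. The part of these differences between leaves in the aquaporin values was not tested.

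Of the 2 SIP genes, SIP2-1 was higher in expanded leaves than in leaf primordia, and no other SIP difference reached 2-fold. SIP2-1 was 6.89, 7.24, 7.23, 7.84 and 7.75 as the mean of stages 2 to 6, against 7.65 in expanded leaves and 6.43 in leaf primordia. All 15 stamens and all 3 expanded leaves lay above the 3 primordia. Expanded leaves exceeded leaf primordia by 1.23 ± 0.20 (SE; limma adjusted p = 6.97e-05), while the stamen difference of 0.96 ± 0.15 (SE; limma adjusted p = 7.58e-05) was just under 2-fold. Between stages 6 and 2 SIP2-1 differed by 0.86 (limma adjusted p = 0.00609) and SIP1-1 by -0.62 (limma adjusted p = 0.0116), both under 2-fold. SIP1-1 had stage means of 9.75, 9.71, 9.65, 9.45 and 9.13, against 9.52 in expanded leaves and 9.18 in leaf primordia, and was called in no comparison.

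Below both leaf samples at once, limma called 0 aquaporins in stamens, where 2.02% of all probe sets were. At that test 3 had an unadjusted p under 0.05, and 2 of them, PIP1-1 and TIP4-1, an adjusted p under 0.05 with a difference below 2-fold. The share of all probe sets at these p-values without the 2-fold rule was not computed.

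Other probe sets of the same genes gave some other sizes but no opposite call. The second probe set of PIP2-2 was -2.94 for stamens minus expanded leaf. A dimmer probe set of PIP2-1 was called there at -1.10, where the main one gave -0.40, with overlapping groups. That probe set was also called for expanded leaf minus leaf primordium at 1.03, where the main one gave -0.15 and was not called. The second probe set of TIP2-1 was -2.47 for stamens minus expanded leaf and 2.78 for expanded leaf minus leaf primordium, both called, where the main one was not called. By Affymetrix naming, the probe sets of TIP3-1, PIP2-2, NIP2-2, TIP2-2 and TIP4-2 can match several transcripts, so their signals may hold those of related genes. A further TIP3-1 probe set lists several genes and had group means between 5.02 and 5.42, with no call. Another probe set lists both PIP2-1 and PIP2-5 and had group means between 10.54 and 11.48. Its stamen minus leaf primordium difference was -0.76 (limma adjusted p = 0.000577), without overlap but under 2-fold. Against both leaf samples at once it was lower by -0.67 (limma adjusted p = 0.00652), also under 2-fold.

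Potassium transporters, which move the main osmotic ion of expanding plant cells, were set beside the aquaporins as a list of 23 genes. Against the leaf primordium 3 were higher in stamens (HAK1 by 1.86, HAK17 by 1.49 and AKT1 by 1.10) and 0 lower, a called share of 13%, near the 14.3% of all probe sets. Against the expanded leaf 1 was higher in stamens (HAK9 by 1.59, with overlapping groups) and 6 lower, led by HAK16 at -5.12, HAK27 at -4.57, HAK22 at -3.85 and HAK18 at -3.59. The called share was 30.4%, and 23.3% over all probe sets. HAK16, a potassium transporter of the HAK group, averaged 4.60 ± 0.36 in stamens (SD, n = 15), against 9.71 ± 0.70 in expanded leaves and 4.39 ± 0.21 in leaf primordia (SD, n = 3 each). In expanded leaves 9 of the 23 were higher and 2 lower than in leaf primordia, the largest being HAK16 at 5.32, HAK27 at 4.85, HAK22 at 3.92 and HAK18 at 3.81. The called share was 47.8%, and 22.6% over all probe sets. Between stages 6 and 2, 4 were higher (HAK12 by 1.41, HAK23 by 1.37, AKT1 by 1.24 and HAK2 by 1.07) and 0 lower. The called share was 17.4%, and 7.87% over all probe sets (4.4% higher and 3.47% lower). The vacuolar proton pump gene VATP-P1 and the silicon exporter LSI2, the partner of Lsi1 in roots, were not called in any comparison.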

How the data were processed

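Total RNA was amplified in 2 labelling cycles and hybridised to Affymetrix rice arrays, per the labels. The deposited log2 values were made by the authors with RMA (robust multi-array average), per the submitters' processing notes. The version and settings are not given in the sources used here, nor are slides or scan dates. RMA gives relative signals, so differences in level between genes were not tested. Signals described as high or low refer only to the scale of the arrays. Of 57381 probe sets, 123 controls were left out, and of the rest 22436 list 1 gene, 95 several and 34727 none.

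1 model over all 21 arrays with 7 group means was fitted in limma 3.58.1 (R 4.3.3), two-sided, for 11 results: 8 differences, an F-test over the stages, and tests above and below both leaf samples. Stamen values average the 5 stages equally. The fit was tested on simulated data with an equal spread in all groups and changes planted in stamens only. That test does not cover the larger spread of the expanded leaf. Genes given in full are up to 4 called higher and 4 lower with the largest differences in each broad comparison, and of other lists up to 4. The members and lists were chosen with earlier results of these data known. Alternatives covered normalization, filters, thresholds, array weights, the variance prior, the probe set rule, the arrays fitted, a 3′ to 5′ covariate, stage 2, a replicate block and leaving out each array. The number of arrays limits the precision.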

Additional observations from a re-analysis of the deposited data

How the results depend on the processing

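Of 42 called gene results, 30 kept their call in every alternative that measured them and 0 changed direction. The 4 F-test results among them have no direction to change, and the alternative with no fold threshold could not lose a call. With no fold threshold 12 aquaporins (6 with it) differed between stamens and leaf primordium, 1 (0 with it) between stages 3 and 2, and 2 (0 with it) were below both leaf samples. The share of all probe sets called was not computed for this or the other alternatives. Testing only probe sets above the median mean gave 9 in place of 14 between expanded leaf and leaf primordium, because 5 called genes were no longer tested. Array weights gave 1, PIP2-4, between stages 3 and 2. The 3′ to 5′ covariate gave 2 in place of 4 between stages 6 and 2 and also over the stages, where an adjusted p under 0.01 gave 1 and leaving out stage 2 gave 1. Leaving out each array gave 0 to 2 between stages 3 and 2 (2 without stage 3 replicate 1, 1 without stage 5 replicate 3) and 2 to 5 over the stages (2 without stage 2 replicate 3, stage 6 replicate 1 or stage 6 replicate 3). It gave 5 to 7 for stamens against leaf primordium, 11 to 13 against expanded leaf, 13 to 16 between the leaf samples and 3 to 4 between stages 6 and 2. The difference of PIP2-6 between expanded leaf and leaf primordium, 0.63, was not called with all arrays. It was -0.0050 without expanded leaf replicate 1, and 1.07 without replicate 3, where it was called. Apart from the dropped genes, the cause was not tested. The labels do not say whether equal replicate numbers pair the samples, and the correlations did not settle it. Same-numbered deviations correlated at -0.43 to 0.48 (median 0.02, against -0.0076 for different numbers). Of 21 arrays, 9 correlated best with their own number. A low median cannot exclude pairing in some of the groups. The replicate block left the counts unchanged except over the stages, where it gave 3 because PIP1-2 was lost.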
